A study of Mus musculus with 12 samples.

Results

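The genes described here encode neuronal RNA-binding proteins of the ELAVL, CELF, RBFOX and NOVA families. They are 10 genes, namely Elavl2, Elavl3, Elavl4, Celf2, Celf4, Celf5, Rbfox1, Rbfox3, Nova1 and Nova2, among 40912 gene IDs in the count table. They were found by gene symbol, and each symbol matched a single ID. The symbols were chosen with earlier results of the same libraries known, and so count as selected on the difference of pulled-down from input RNA in both lines. Differences between pulldown and input are therefore given for the 10 genes as a description with no p-value. In the other comparisons the p-values printed for the 10 genes also serve as a description, since earlier results were known.

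The proteins of these families bind short motifs in pre-mRNA and mRNA and set which exons are kept, how long a transcript lasts and where it is translated. ELAVL proteins bind U-rich and AU-rich stretches, CELF proteins bind GU-rich stretches, RBFOX proteins bind GCAUG, and NOVA proteins bind clusters of YCAY, where Y is C or U. In the spinal cord several of them are used to tell neurons from glia, above all Rbfox3, whose protein is the antigen NeuN, and Elavl3 and Elavl4, known as HuC and HuD.

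RNA was sequenced from spinal cord of mice at postnatal day 21 that carried 1 of 2 bacTRAP transgenes, in which the ribosomal protein Rpl10a is fused to EGFP so that tagged ribosomes can be pulled down with their RNA. TRAP_Chat was the pulldown from the strain Tg(Chat-EGFP/Rpl10a)DW167Htz, whose tag is driven by Chat sequences and marks cholinergic neurons such as motor neurons, and PreIP_Chat was the RNA of that strain before the pulldown. TRAP_Snap25 and PreIP_Snap25 were the pulldown and the RNA before it from Tg(Snap25-EGFP/Rpl10a)JD362Jdd, whose tag is driven by Snap25 sequences and marks neurons in general. Each of the 4 groups had 3 libraries, the pulldown ran for 4 h at 4 °C, and all groups carried a tagged transgene, so that no group lacked one. The labels do not tell whether the libraries of a group are from separate animals. The p-values measure no more than the spread of libraries within groups, pooled over all 12 libraries, which may be technical.

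Total counts were between 10149346 and 20521699 per library, and the 10 genes had between 56 and 9038 counts in a library. All 10 passed the filter on low counts, as did 15905 genes in all. Levels are given in CPM, the counts scaled to library size after TMM. The labelled cell types were checked by their markers. All 10 markers of cholinergic motor neurons were called higher in TRAP_Chat than in PreIP_Chat, and their summed level was 612% to 982% of the mean of the inputs in TRAP_Chat libraries and 179% to 313% in TRAP_Snap25 libraries. For 14 markers of neurons in general this level was 176% to 246% in TRAP_Chat and 136% to 160% in TRAP_Snap25. That sum is weighted towards genes of high level, such as Nefl and Nefm, which were 3.64-fold and 3.48-fold higher in TRAP_Chat than in PreIP_Chat. Of the 14 log2 fold changes, 12 were positive in the Chat line and 10 in the Snap25 line, with 4 and 3 called higher. For 9 markers of GABAergic and glycinergic neurons the summed level was 14.9% to 28.8% in TRAP_Chat and 115% to 159% in TRAP_Snap25. For 8 oligodendrocyte markers it was 10.8% to 29.3% in TRAP_Chat and 9.3% to 28.5% in TRAP_Snap25. Astrocyte markers had 12.5% to 25.5% of the input level in TRAP_Chat and 9.84% to 21.6% in TRAP_Snap25. For 8 gene IDs of nuclear RNAs the level was 3.21% to 20.5% in TRAP_Chat and 1.46% to 11% in TRAP_Snap25. Replicate 1 of TRAP_Chat and replicate 3 of TRAP_Snap25 held the highest values of both the oligodendrocyte and the nuclear list in their groups. Replicate 1 of TRAP_Chat also had 6.67% of its counts in mitochondrial ribosomal RNA, against 0.303% and 0.358% in the other TRAP_Chat libraries and 23.2% to 26.2% in PreIP_Chat. No marker of the cholinergic, pan-neuronal, oligodendrocyte and astrocyte lists was at 0 in any library, and the part these cells and RNAs play in the differences described here was not tested. In bulk RNA of this kind, fewer cells of a type and less RNA per cell cannot be told apart.

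The ELAVL genes split within the family. Elavl3 was lower in both pulldowns than in their inputs, while Elavl2 and Elavl4 had higher group means in both. Elavl3, which encodes HuC, had 67.1, 74.7 and 98.0 CPM in TRAP_Chat, against 310, 227 and 222 CPM in PreIP_Chat. In the Snap25 line it had 88.2, 53.6 and 48.5 CPM in TRAP_Snap25, against 298, 265 and 160 CPM in PreIP_Snap25. Every pulldown library lay below every input library of its line. The log2 fold change was -1.66 ± 0.29 (SE) for TRAP_Chat over PreIP_Chat, or 3.16-fold lower, and -1.93 ± 0.29 for TRAP_Snap25 over PreIP_Snap25, or 3.80-fold lower. For the 14 pan-neuronal markers the median log2 fold change was 0.41 in the Chat line and 0.67 in the Snap25 line, with 4 and 3 of them called higher and none lower.

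Elavl2, which encodes HuB, had 104, 215 and 127 CPM in TRAP_Chat, against 50.1, 82.4 and 64.8 CPM in PreIP_Chat. In TRAP_Snap25 it had 156, 115 and 78.6 CPM, against 81.9, 80.7 and 69.2 CPM in PreIP_Snap25. The Chat line libraries did not overlap, whereas replicate 3 of TRAP_Snap25 lay below replicates 1 and 2 of PreIP_Snap25. Its log2 fold changes were 1.18 ± 0.30 in the Chat line, or 2.26-fold higher, and 0.59 ± 0.30 in the Snap25 line, which edgeR called only with scaling to total counts or with the GC trend of each library removed. Without replicate 1 of PreIP_Chat the Chat value was 1.0 and no longer passed the threshold. Elavl4, which encodes HuD and is known for its role in neurite growth, had 76.9, 103 and 77.9 CPM in TRAP_Chat, against 47.6, 60.4 and 56.3 CPM in PreIP_Chat. Its levels were 90.0, 117 and 67.0 CPM in TRAP_Snap25, against 68.7, 67.1 and 48.2 CPM in PreIP_Snap25. Again the Chat line libraries did not overlap and those of the Snap25 line did, through replicate 3 of TRAP_Snap25. The log2 fold changes of Elavl4 were 0.65 ± 0.25 in the Chat line and 0.58 ± 0.25 in the Snap25 line, neither called by edgeR as fitted. In the Chat line Elavl4 was called higher by DESeq2, with scaling to total counts, without the mitochondrial genes, in a fit of only the groups compared, with the replicate number as a block and with the GC trend removed. In the Snap25 line it was called with scaling to total counts, without replicate 3 of TRAP_Snap25 and with the GC trend removed.

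The counts of Elavl2, Elavl3 and Elavl4 are also given as shares of their sum, which do not depend on library scaling. Elavl1 is left out. The shares restate the difference these genes count as selected on, and add no support to it. Elavl3 took 27.1%, 19.0% and 32.4% of the counts of the 3 genes in TRAP_Chat, against 76.0%, 61.4% and 64.7% in PreIP_Chat. In the Snap25 line it took 26.4%, 18.8% and 25% in TRAP_Snap25, against 66.5%, 64.2% and 57.7% in PreIP_Snap25. No pulldown library reached the lowest input. Elavl2 took 46.2% ± 7.42 in TRAP_Chat and 17.8% ± 5.07 in PreIP_Chat, and 42.5% ± 3.68 in TRAP_Snap25 and 20.9% ± 3.54 in PreIP_Snap25 (SD, n = 3 each). Elavl4 took 27.6% ± 2.92 in TRAP_Chat and 14.8% ± 2.72 in PreIP_Chat, and 34.1% ± 7.05 in TRAP_Snap25 and 16.3% ± 1.04 in PreIP_Snap25 (SD, n = 3 each). Of the 3 genes, Elavl3 thus had the most counts in each input library, whereas Elavl2 or Elavl4 had the most in each pulldown library. These shares are of read counts and are not corrected for transcript length or GC content. The longest coding transcript has 54.1% GC for Elavl3, 38.5% for Elavl2 and 38.9% for Elavl4, and single libraries leaned with GC content as given below.

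**Figure D1:**
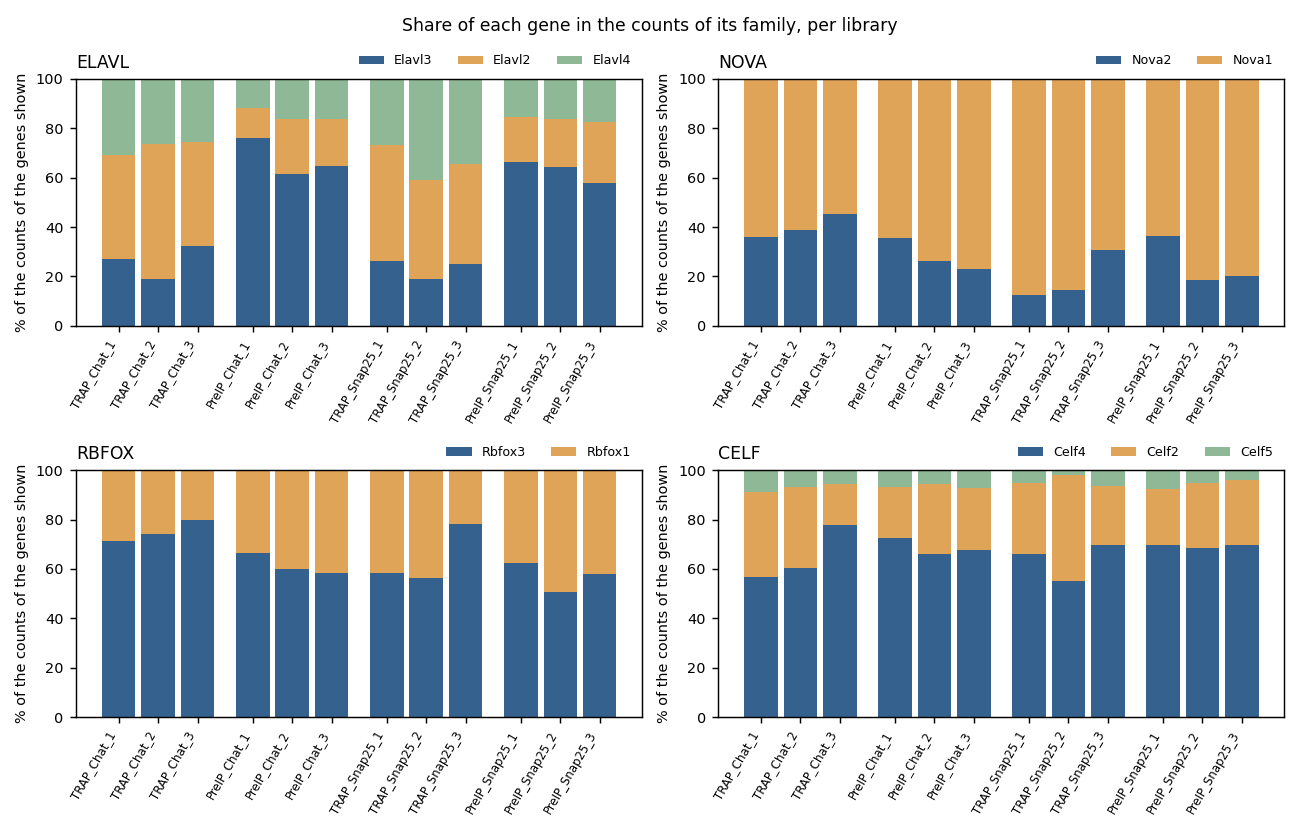
Each bar is 1 library and splits the counts of the family members shown (vertical axis, % of their summed counts), with the pulldown of each line left of its input. Elavl3 takes 18.8% to 32.4% in pulldowns and 57.7% to 76.0% in inputs, and Nova2 takes 36.1% to 45.4% in TRAP_Chat and 12.6% to 30.7% in TRAP_Snap25.

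The promoters of the ELAVL genes are shown because Elavl3 differed from its paralogs in direction. Sequences are from RefSeq on build GRCm38.p6 and run from 250 bases before to 50 after a transcript start, 5′ to 3′ on the gene's strand. For Elavl2, with 6 starts in the table, and Elavl4, with 4, the first listed start is printed, and Elavl3 has a single start. They lie on the minus strand at chr9:22051974-22052273 for Elavl3, chr4:91399935-91400234 for Elavl2 and chr4:110351862-110352161 for Elavl4. Capitals mark matches on either strand to the letters GGGCGG of a GC box, to CCAAT, or to the letters TATAAA, the TATA motif.
Elavl3: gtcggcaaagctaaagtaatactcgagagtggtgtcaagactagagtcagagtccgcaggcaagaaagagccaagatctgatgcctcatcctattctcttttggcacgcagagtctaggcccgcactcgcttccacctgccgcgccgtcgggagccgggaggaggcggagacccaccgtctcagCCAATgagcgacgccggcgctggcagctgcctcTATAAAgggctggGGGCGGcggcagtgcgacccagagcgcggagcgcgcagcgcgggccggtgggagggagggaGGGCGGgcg
Elavl2: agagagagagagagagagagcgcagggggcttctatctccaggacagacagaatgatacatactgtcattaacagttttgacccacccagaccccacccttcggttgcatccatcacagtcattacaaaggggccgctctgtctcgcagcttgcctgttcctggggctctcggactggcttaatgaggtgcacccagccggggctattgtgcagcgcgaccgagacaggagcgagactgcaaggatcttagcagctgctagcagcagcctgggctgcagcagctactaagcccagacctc
Elavl4: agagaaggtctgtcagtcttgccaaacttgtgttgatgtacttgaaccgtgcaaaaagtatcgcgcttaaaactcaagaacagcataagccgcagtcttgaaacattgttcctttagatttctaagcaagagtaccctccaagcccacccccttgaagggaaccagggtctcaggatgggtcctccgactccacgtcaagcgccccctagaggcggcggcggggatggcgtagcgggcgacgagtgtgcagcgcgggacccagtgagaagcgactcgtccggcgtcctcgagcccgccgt
The Elavl3 window held 2 GC boxes, 1 match to CCAAT and 1 to the TATA motif, which lie apart from each other, and the windows printed for Elavl2 and Elavl4 held 0 of each. Of 32851 mouse promoters of the same length, 35.7% held the GC box, 37.4% held CCAAT and 13.6% held the TATA motif. The GC content of the Elavl3 window was 65.3% with 29 CpG, against 57.0% with 10 CpG for Elavl2 and 57.0% with 23 CpG for Elavl4. Over all promoters the median GC content was 52.7%. Other starts of Elavl2 and Elavl4 do hold these motifs, with up to 4 GC boxes and 2 matches to CCAAT in a window of Elavl2 and up to 2 to CCAAT in one of Elavl4. The windows at other starts of Elavl2 had 56.0% to 72.3% GC with 18 to 27 CpG. Those at other starts of Elavl4 had 43.7% to 47.3% GC with 4 to 6 CpG. A match of letters is a description of the window and shows no binding.

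The 3 CELF genes were lower in pulled-down RNA than in input RNA in both lines. Celf4, a neuronal CELF protein whose loss causes seizures in mice, had 67.1, 61.8 and 106 CPM in TRAP_Chat, against 245, 209 and 214 CPM in PreIP_Chat. In TRAP_Snap25 it had 126, 82.9 and 110 CPM, against 256, 338 and 193 CPM in PreIP_Snap25. Pulldown and input libraries did not overlap in either line. The log2 fold changes were -1.51 ± 0.27 in the Chat line and -1.30 ± 0.27 in the Snap25 line, or 2.84-fold and 2.47-fold lower. Celf2, a splicing regulator of brain, heart and muscle, had 40.2, 33.2 and 22.8 CPM in TRAP_Chat, against 70.5, 89.8 and 78.3 CPM in PreIP_Chat. It had 55, 64.8 and 37.5 CPM in TRAP_Snap25, against 83.3, 130 and 72.5 CPM in PreIP_Snap25. Here too no libraries overlapped, and the log2 fold changes were -1.31 ± 0.29 in the Chat line and -0.86 ± 0.28 in the Snap25 line.

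Celf5, a CELF gene expressed mainly in brain, had 10.5, 7.03 and 7.60 CPM in TRAP_Chat, against 22.5, 18.1 and 23.3 CPM in PreIP_Chat. Its levels were 10.1, 3.13 and 9.97 CPM in TRAP_Snap25, against 28.5, 25.2 and 10.7 CPM in PreIP_Snap25. The libraries did not overlap, although replicate 3 of PreIP_Snap25 lay just above the highest TRAP_Snap25 library. Its log2 fold changes were -1.35 ± 0.43 in the Chat line and -1.48 ± 0.43 in the Snap25 line, with the widest errors of the 10 genes. Unlike the ELAVL shares, the share of Celf4 in the counts of these 3 genes overlapped between fractions, at 65.1% ± 11.1 in TRAP_Chat and 68.7% ± 3.36 in PreIP_Chat, and 63.6% ± 7.69 in TRAP_Snap25 and 69.4% ± 0.658 in PreIP_Snap25 (SD, n = 3 each).

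The Celf2 and Celf5 calls depended on the libraries and scaling used. In the Chat line Celf5 was below the threshold without replicate 2 or 3 of TRAP_Chat, without replicate 1 or 3 of PreIP_Chat, or with scaling to total counts. In the Snap25 line, both Celf2 and Celf5 missed it without replicate 1 or 2 of PreIP_Snap25, with scaling to total counts or in a fit of the groups compared alone. Celf2 also missed it there without replicate 1 or 3 of TRAP_Snap25 or without the mitochondrial genes, and Celf5 without replicate 2 of TRAP_Snap25.

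**Figure D2:**
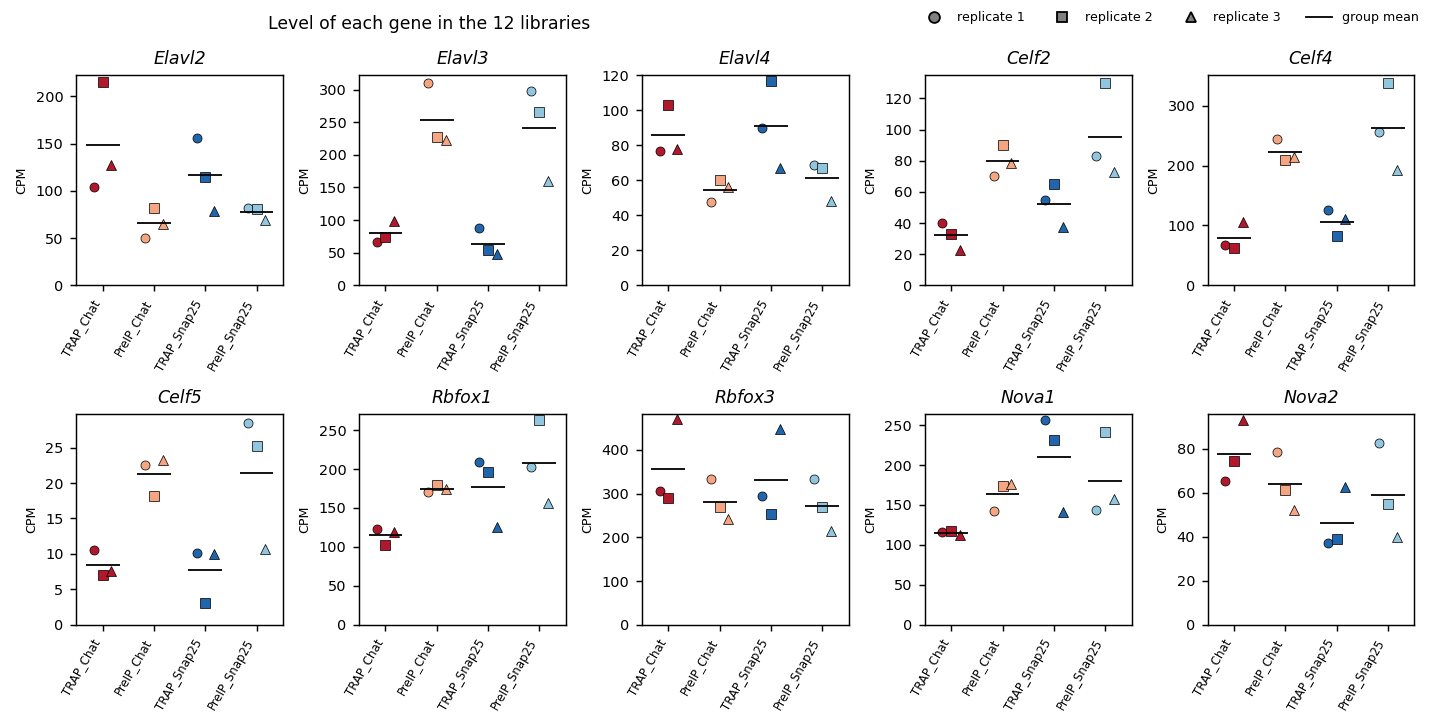
Each panel is 1 gene, with CPM from 0 on the vertical axis, a symbol per library by replicate number and a line at the group mean of 3 libraries. Elavl3 lies at 48.5 to 98.0 CPM in pulldowns and 160 to 310 CPM in inputs, and Celf4 lies at 61.8 to 126 CPM in pulldowns and 193 to 338 CPM in inputs.

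The RBFOX genes differed less between fractions. Rbfox3, whose protein is the neuronal marker NeuN, had 307, 291 and 470 CPM in TRAP_Chat, against 333, 270 and 243 CPM in PreIP_Chat. It had 295, 253 and 449 CPM in TRAP_Snap25, against 334, 270 and 214 CPM in PreIP_Snap25. The fractions overlapped in both lines, and replicate 3 was the highest library of either pulldown. The log2 fold changes were 0.34 ± 0.27 in the Chat line and 0.28 ± 0.27 in the Snap25 line, neither past the threshold. Rbfox1, which encodes a splicing regulator of channel and synaptic transcripts, had 123, 102 and 119 CPM in TRAP_Chat, against 170, 179 and 175 CPM in PreIP_Chat. It had 209, 196 and 126 CPM in TRAP_Snap25, against 203, 263 and 156 CPM in PreIP_Snap25. The Chat line libraries did not overlap and those of the Snap25 line did. Log2 fold changes of Rbfox1 were -0.60 ± 0.24 in the Chat line and -0.23 ± 0.24 in the Snap25 line, neither called by edgeR as fitted. In the Chat line Rbfox1 was called lower with the replicate number as a block, in a fit of only the groups compared and with the GC trend removed.

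The NOVA paralogs had opposite signs in the 2 lines, with no call by edgeR as fitted. Nova1, whose loss in mice leads to death of spinal cord neurons and a motor deficit, had 116, 118 and 112 CPM in TRAP_Chat, against 142, 174 and 176 CPM in PreIP_Chat. In TRAP_Snap25 it had 257, 232 and 141 CPM, against 144, 241 and 157 CPM in PreIP_Snap25. The Chat line libraries did not overlap and those of the Snap25 line did. The log2 fold changes were -0.51 ± 0.26 in the Chat line and 0.22 ± 0.26 in the Snap25 line, and the Chat line value was called in a fit of only the groups compared and with the GC trend removed. Nova2, the paralog best known from the neocortex, had 65.4, 74.7 and 93.2 CPM in TRAP_Chat, against 78.5, 61.3 and 52.2 CPM in PreIP_Chat. It had 37.1, 38.8 and 62.6 CPM in TRAP_Snap25, against 82.8, 55 and 39.8 CPM in PreIP_Snap25. The fractions overlapped in both lines, with log2 fold changes of 0.28 ± 0.29 in the Chat line and -0.36 ± 0.29 in the Snap25 line. In the GENCODE M21 annotation 31.7% of the Nova2 exon bases are shared with Gm26821 on the opposite strand, and Gm26821 had 0 counts in every library. That does not show whether reads from the shared bases were counted for Nova2 or left out.

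Of the 10 genes, 1 was called higher and 4 lower in TRAP_Chat against PreIP_Chat, where 12.6% of all tested genes were called higher and 14.3% lower. The 1 gene was Elavl2, and the 4 were Elavl3, Celf2, Celf4 and Celf5. In a fit of only the groups compared and with the GC trend removed there were 6 lower, with Rbfox1 and Nova1 added. In TRAP_Snap25 against PreIP_Snap25, 0 were called higher and the same 4 lower, where 9.69% of all genes were called higher and 12.7% lower by edgeR's quasi-likelihood test. DESeq2 and limma voom also called 0 higher there. Libraries did not overlap for 2 higher and 6 lower genes in the Chat line, where this held for 21.8% and 26.1% of all genes, and for 0 higher and 4 lower in the Snap25 line, where it held for 16.6% and 21.4%. The median log2 fold change of the 10 genes was -0.56 in the Chat line and -0.29 in the Snap25 line, where all tested genes had -0.06 and -0.00. Since the genes were chosen with these contrasts known, nothing is read from these counts. With scaling to total counts the median of all genes shifted by 0.24 and 0.38 in the 2 lines. The split of all calls, higher against lower, then changed to 2642 against 1579 in the Chat line, where TMM gave 2005 against 2268, and to 3289 against 1391 in the Snap25 line, where TMM gave 1541 against 2017.

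**Figure D3:**
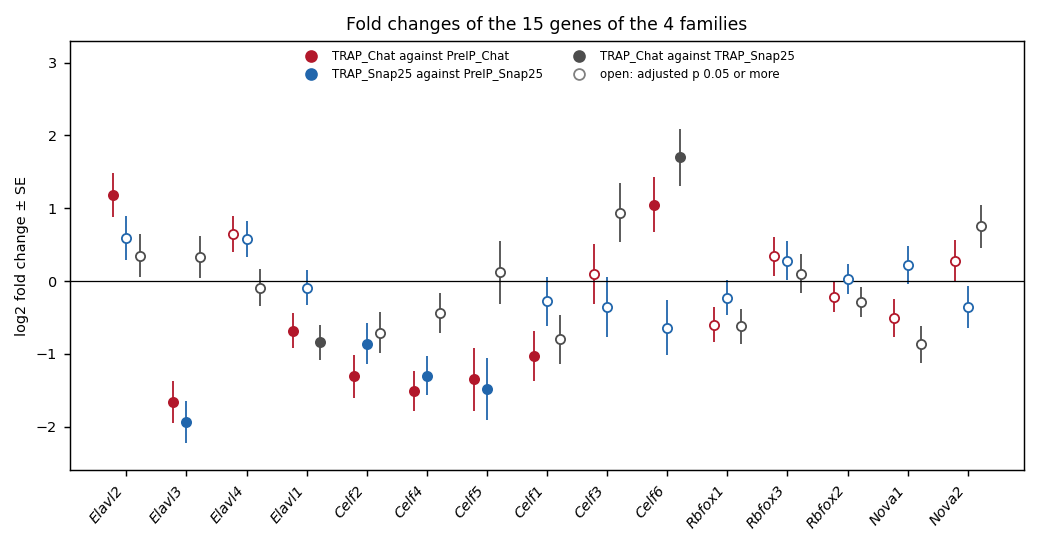
Log2 fold changes with SE for the 15 genes of the 4 families in 3 comparisons, where filled points passed an edgeR adjusted p of 0.05 and open ones did not. For the 10 genes, chosen with earlier results known, the fill is a description and no test. Elavl3, Celf2, Celf4 and Celf5 lie below 0 in both pulldowns, at -0.86 to -1.93, and Celf6 and Elavl1 are filled in TRAP_Chat against TRAP_Snap25.

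Levels of different genes were compared per kilobase of annotated exon (CPM per kb). In TRAP_Chat the order was led by Rbfox3 at 61.2 ± 17.1 CPM per kb and Rbfox1 at 26.1 ± 2.50, and closed by Celf5 at 1.26 ± 0.280 and Celf2 at 1.24 ± 0.339 (SD, n = 3). Between these lay Elavl2 at 17.9 ± 7.04, Elavl4 at 15.9 ± 2.73, Nova1 at 13.2 ± 0.315, Elavl3 at 11.6 ± 2.34, Nova2 at 9.29 ± 1.69 and Celf4 at 9.12 ± 2.81 CPM per kb. The libraries of neighbours in that middle stretch overlapped, except that Elavl4 lay above Nova1 in every library. In TRAP_Snap25, Rbfox3 had 57.1 ± 17.7 and Rbfox1 40.2 ± 10.2 CPM per kb, followed by Nova1 at 24.1 ± 6.98, Elavl4 at 17 ± 4.64, Elavl2 at 14.0 ± 4.68, Celf4 at 12.4 ± 2.56, Elavl3 at 9.20 ± 3.13, Nova2 at 5.52 ± 1.71, Celf2 at 2.02 ± 0.533 and Celf5 at 1.16 ± 0.600. There the libraries of all neighbours overlapped, except those of Nova2 and Celf2. In PreIP_Chat, Elavl3 at 36.7 ± 7.17 CPM per kb stood close to Rbfox1 at 39.7 ± 1.09 and Rbfox3 at 48.5 ± 7.90, with Celf4 next at 25.9 ± 2.26 and the other 6 genes between 3.07 for Celf2 and 18.8 for Nova1. In PreIP_Snap25 the same 4 genes led, with 47.1 ± 12.2 for Rbfox1, 46.9 ± 10.3 for Rbfox3, 35.0 ± 10.5 for Elavl3 and 30.6 ± 8.49 for Celf4, and the other 6 genes lay between 3.22 for Celf5 and 20.7 for Nova1. Elavl3 and Celf4 thus stood just below the RBFOX genes in both inputs, while in both pulldowns Elavl3 stood below Elavl2, Elavl4 and Nova1. The exon length joins all annotated isoforms and is 25.9 kb for Celf2, whose longest coding transcript has 8856 bases, and the level of Celf2 per kb would be higher over that length. Joined exons and longest coding transcript have 8583 and 3995 bases for Celf4, and 8313 and 4191 for Elavl2. They have 6890 and 5014 bases for Elavl3, and 8372 each for Nova2. The order of the genes, such as that of Celf4 and Elavl3, therefore depends on the length chosen.

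The pulldowns of the lines were compared to ask how RNA on ribosomes of cholinergic neurons differs from that of neurons at large. None of the 10 genes passed edgeR's quasi-likelihood test after Benjamini-Hochberg adjustment over all genes, in TRAP_Chat against TRAP_Snap25, where 3.97% of all genes were called higher and 2.77% lower. At an unadjusted p under 0.05 there were 4, namely Nova1, Nova2, Rbfox1 and Celf2. The share of all genes at that cut-off was not taken, so nothing is read from this count. Nova1 had the value nearest the threshold, with 116, 118 and 112 CPM in TRAP_Chat, against 257, 232 and 141 CPM in TRAP_Snap25, a log2 fold change of -0.87 ± 0.26 and an edgeR adjusted p of 0.053. DESeq2 and limma voom each called 1 gene, Nova1, lower, and its adjusted p ran from 0.0038 to 0.156 over the alternatives. Nova2 had a log2 fold change of 0.75 ± 0.29 with an edgeR adjusted p of 0.14, and Rbfox1 one of -0.62 ± 0.24 with an adjusted p of 0.142. For Celf2 the log2 fold change was -0.71 ± 0.28 with an edgeR adjusted p of 0.151. The other 6 genes had log2 fold changes between -0.44 for Celf4 and 0.35 for Elavl2. TRAP_Chat and TRAP_Snap25 libraries did not overlap for 1 higher gene, Nova2, and 2 lower genes, Nova1 and Rbfox1, where this held for 10.3% and 9.47% of all genes. The SE and p-values of this comparison rest on a spread pooled with the inputs, which varied less than the pulldowns. In a fit of only the 2 pulldowns, 237 of 14111 genes were called higher and 145 lower. The fit over all 12 libraries called 632 and 441 of 15905.

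Within the NOVA pair, Nova2 took 36.1%, 38.8% and 45.4% of the counts in TRAP_Chat, against 12.6%, 14.3% and 30.7% in TRAP_Snap25. The 2 groups did not overlap, and replicate 3 stood apart from replicates 1 and 2 of TRAP_Snap25. The inputs had 35.6%, 26.1% and 22.8% in PreIP_Chat, against 36.4%, 18.6% and 20.2% in PreIP_Snap25, and overlapped. Within the RBFOX pair, Rbfox3 took 71.4%, 73.9% and 79.8% in TRAP_Chat, against 58.5%, 56.3% and 78.1% in TRAP_Snap25, with replicate 3 of TRAP_Snap25 again apart. Both pairs join a gene of high and a gene of low transcript GC content, at 56.3% for Nova2 and 38.5% for Nova1, and 58.6% for Rbfox3 and 45.0% for Rbfox1. Across 14159 genes the deviation of a library from its group mean had a Spearman correlation with transcript GC of 0.54 in replicate 3 of TRAP_Snap25, against -0.41 in replicate 1 and -0.26 in replicate 2, and between -0.00 and 0.01 in the TRAP_Chat libraries. In the inputs it was 0.45, -0.07 and -0.41 in PreIP_Chat and 0.40, -0.51 and 0.16 in PreIP_Snap25. Genes are not independent replicates, and these values are a description. With the GC trend of each library removed, an alternative chosen after seeing the data, the log2 fold change of TRAP_Chat over TRAP_Snap25 was -0.87 for Nova1, which was then called, and 0.71 for Nova2, which was not. Without replicate 3 of TRAP_Snap25, Nova1 at -1.09, Rbfox1 at -0.82 and Nova2 at 1.04 were all called.

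The difference between the lines in pulldown over input was called for 0 of the 10 genes by edgeR, where 0.604% of all genes were called higher and 0.44% lower. At an unadjusted p under 0.05 there were 0 as well, and DESeq2 and limma voom called 0 of the 10. The widest values were -0.73 ± 0.36 for Nova1, with an edgeR adjusted p of 0.466, and 0.64 ± 0.41 for Nova2, with an adjusted p of 0.622, on the log2 scale. Elavl3 differed by 0.27 ± 0.40 and Celf4 by -0.20 ± 0.37 between the lines. In PreIP_Chat against PreIP_Snap25, 0 of the 10 genes and 0 of all 15905 were called by edgeR, or 0% higher and 0% lower. There were 0 of the 10 at an unadjusted p under 0.05, and over all genes DESeq2 called 1 higher and limma voom 0. Log2 fold changes between the inputs lay between -0.26 for Celf2 and 0.11 for Nova2.

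The remaining 5 genes of the families were Elavl1, Celf1, Celf3, Celf6 and Rbfox2, also listed with earlier results known, so their p-values serve as a description. Elavl1, the ubiquitous HuR, fell in TRAP_Chat against PreIP_Chat (log2 fold change -0.68 ± 0.24, edgeR adjusted p 0.0475) and was lower in TRAP_Chat than in TRAP_Snap25 (-0.84 ± 0.24, edgeR adjusted p 0.0473). It had 32.6, 38.6 and 57.1 CPM in TRAP_Chat, 88.6, 74.7 and 66.8 CPM in TRAP_Snap25, 56.6, 72.2 and 77.0 CPM in PreIP_Chat and 77.0, 90.6 and 77.4 CPM in PreIP_Snap25. The TRAP_Chat libraries lay below all TRAP_Snap25 libraries and overlapped PreIP_Chat by 1 library. Celf6, a CELF gene of the nervous system, had 18.7, 9.67 and 22.2 CPM in TRAP_Chat, against 4.19, 6.87 and 4.47 CPM in TRAP_Snap25, with no overlap, and was higher in TRAP_Chat by 1.70 ± 0.39 on the log2 scale (edgeR adjusted p 0.0137). Against PreIP_Chat, at 9.83, 7.14 and 7.51 CPM, it rose by 1.05 ± 0.38 (edgeR adjusted p 0.0481). The difference between the lines for Celf6 was 1.69 ± 0.53 with an edgeR adjusted p of 0.169. Celf1, a broadly expressed splicing and decay factor, fell by 1.03 on the log2 scale in TRAP_Chat against PreIP_Chat (edgeR adjusted p 0.0355). Celf3, a brain CELF gene, had log2 fold changes of 0.10 ± 0.41 in the Chat line and -0.36 ± 0.41 in the Snap25 line, and Rbfox2, the broadly expressed RBFOX gene, -0.22 ± 0.21 and 0.03 ± 0.21. None of the 5 was called in TRAP_Snap25 against PreIP_Snap25 by edgeR, and 0 had an unadjusted p under 0.05. The Elavl1 call against PreIP_Chat was lost without any 1 of the 3 PreIP_Chat libraries or replicate 1 or 2 of TRAP_Chat, and the Celf6 call without any 1 of the 3 PreIP_Chat libraries or replicate 1 or 3 of TRAP_Chat. Celf1 was lost without replicate 2 or 3 of either group. Scaling to total counts also ended the Elavl1 and Celf1 calls, and the replicate block that of Celf6. Over the alternatives the edgeR adjusted p reached 0.277 for Elavl1, 0.147 for Celf1 and 0.18 for Celf6. Between the pulldowns, Elavl1 was lost without replicate 1 or 2 of either group, and Celf6 without replicate 3 of TRAP_Chat, where its edgeR adjusted p was 0.054, and both in a fit of only the groups compared.

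Other RNA-binding proteins were read from 3 lists, chosen with earlier results known. Up to 2 called genes with the largest change are named per list, comparison and direction. Their p-values are those of genes picked from data already seen, and serve as a description. Of 16 splicing regulators, 2 rose and 5 fell in TRAP_Chat against PreIP_Chat (median log2 fold change -0.42), where 12.6% of all genes rose and 14.3% fell with a median of -0.06, and 1 rose and 5 fell in TRAP_Snap25 against PreIP_Snap25 (median -0.03), where 9.69% of all genes rose and 12.7% fell with a median of -0.00. The genes that rose in TRAP_Chat were Pcbp3, a poly(C)-binding protein, by 1.46 ± 0.23, and Srrm4, a regulator of neuronal microexons, by 1.17 ± 0.26 (edgeR adjusted p 0.00036 and 0.00402). Pcbp3 averaged 207 ± 18.3 CPM in TRAP_Chat, 95.3 ± 18.9 in TRAP_Snap25, 75.2 ± 11.1 in PreIP_Chat and 65.8 ± 12 in PreIP_Snap25 (SD, n = 3). Both genes were also higher in TRAP_Chat than in TRAP_Snap25, by 1.12 ± 0.23 and 0.96 ± 0.26 (edgeR adjusted p 0.00697 and 0.0347). In TRAP_Snap25 against PreIP_Snap25 the log2 fold changes were 0.53 for Pcbp3 and 0.02 for Srrm4, neither called, and the difference between the lines was not called for either (0.93 ± 0.32 and 1.15 ± 0.37, with edgeR adjusted p 0.224 and 0.174). Pcbp3 was called in the Snap25 line with scaling to total counts and with the GC trend removed, and its difference between the lines was called with the GC trend removed. Ptbp2, the neural polypyrimidine tract-binding protein, rose in TRAP_Snap25 by 0.93 ± 0.30 (edgeR adjusted p 0.035) and had a log2 fold change of 0.45 ± 0.30 in the Chat line, not called. Its paralog Ptbp1, which is low in neurons, fell by 1.74 in TRAP_Chat and fell by 2.12 in TRAP_Snap25 on the log2 scale (edgeR adjusted p 0.00359 and 0.00167). Qk, a splicing and stability factor of glia, fell by 2.22 on the log2 scale in TRAP_Chat and fell by 3.20 in TRAP_Snap25 (edgeR adjusted p 0.000257 and 4.22e-05). It averaged 193 ± 86.6 CPM in TRAP_Chat and 897 ± 128 CPM in PreIP_Chat, and 104 ± 26.3 CPM in TRAP_Snap25 and 956 ± 313 CPM in PreIP_Snap25 (SD, n = 3 each). Rbm24, best known from muscle, fell by 3.20 on the log2 scale in TRAP_Chat from low counts, at 0.226 ± 0.174 CPM in TRAP_Chat and 2.22 ± 0.436 CPM in PreIP_Chat (SD, n = 3 each), with an edgeR adjusted p of 0.00464. In the Snap25 line its log2 fold change was -1.43 ± 0.66, not called. The Srrm4 call between the pulldowns was lost without replicate 3 of TRAP_Chat or replicate 1 or 3 of TRAP_Snap25, and the Ptbp2 call without any 1 library of the Snap25 line except replicate 3 of TRAP_Snap25. A fit of only the groups compared ended both.

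Of 20 tested regulators of mRNA transport and translation, 1 rose and 4 fell in TRAP_Chat against PreIP_Chat (median -0.22), and 0 rose and 6 fell in TRAP_Snap25 against PreIP_Snap25 (median -0.42), beside the same shares and medians of all genes. The 1 gene was Cpeb1, a cytoplasmic polyadenylation factor, which rose by 1.22 ± 0.21 (edgeR adjusted p 0.000599). Cpeb1 averaged 109 ± 7.93 CPM in TRAP_Chat, 57.4 ± 8.19 in TRAP_Snap25, 46.8 ± 4.16 in PreIP_Chat and 44.7 ± 2.0 in PreIP_Snap25 (SD, n = 3), and was higher in TRAP_Chat than in TRAP_Snap25 by 0.93 ± 0.21 (edgeR adjusted p 0.0117). In the Snap25 line the log2 fold change of Cpeb1 was 0.36, called only with scaling to total counts. Ybx1, a cold-shock domain protein, fell by 1.95 in TRAP_Chat and fell by 2.30 in TRAP_Snap25 on the log2 scale (edgeR adjusted p 0.00049 and 0.000279). Purb, a single-stranded nucleic acid-binding protein, fell by 1.09 in TRAP_Chat and fell by 1.07 in TRAP_Snap25 on the log2 scale (edgeR adjusted p 0.0114 and 0.0157). Igf2bp2, an mRNA-binding protein of insulin-like growth factor transcripts, fell by 2.56 on the log2 scale in TRAP_Snap25 (edgeR adjusted p 0.0222) and had -0.21 ± 0.68 in the Chat line, not called. Its counts were low, at 0.65 ± 0.299 CPM in TRAP_Snap25 and 3.96 ± 0.923 CPM in PreIP_Snap25 (SD, n = 3 each). In TRAP_Chat it ran from 0.453 to 6.12 CPM, and in PreIP_Chat from 3.18 to 3.49 CPM. The difference between the lines was not called for Ptbp1, Ptbp2, Rbm24, Purb, Cpeb1 or Igf2bp2, where that of Igf2bp2 was 2.35 ± 1.0 with an edgeR adjusted p of 0.364. Of 11 RNA-binding proteins mutated in motor neuron disease, 1 fell in each pulldown and 0 rose (medians -0.24 in the Chat line and -0.36 in the Snap25 line). It was Tia1, a stress granule protein, which fell by 1.73 in TRAP_Chat and fell by 2.58 in TRAP_Snap25 on the log2 scale (edgeR adjusted p 0.0381 and 0.00704). Of these calls, Purb was lost in the Chat line without replicate 2 of TRAP_Chat or replicate 3 of PreIP_Chat and in the Snap25 line without replicate 2 of either group, and Igf2bp2 without replicate 3 of TRAP_Snap25 or replicate 1 or 2 of PreIP_Snap25. Tia1 was lost in the Chat line without replicate 1 or 3 of TRAP_Chat or replicate 2 or 3 of PreIP_Chat, and in the Snap25 line without replicate 2 of PreIP_Snap25. Cpeb1 between the pulldowns was lost without replicate 2 of TRAP_Snap25 and in a fit of only the groups compared, and Tia1 in the Chat line and Purb in both lines with scaling to total counts. Between the pulldowns, 4 of the 52 tested genes of the 4 lists were higher in TRAP_Chat (Celf6, Srrm4, Pcbp3 and Cpeb1) and 1 lower (Elavl1), where 3.97% of all genes were called higher and 2.77% lower.

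**Figure D4:**
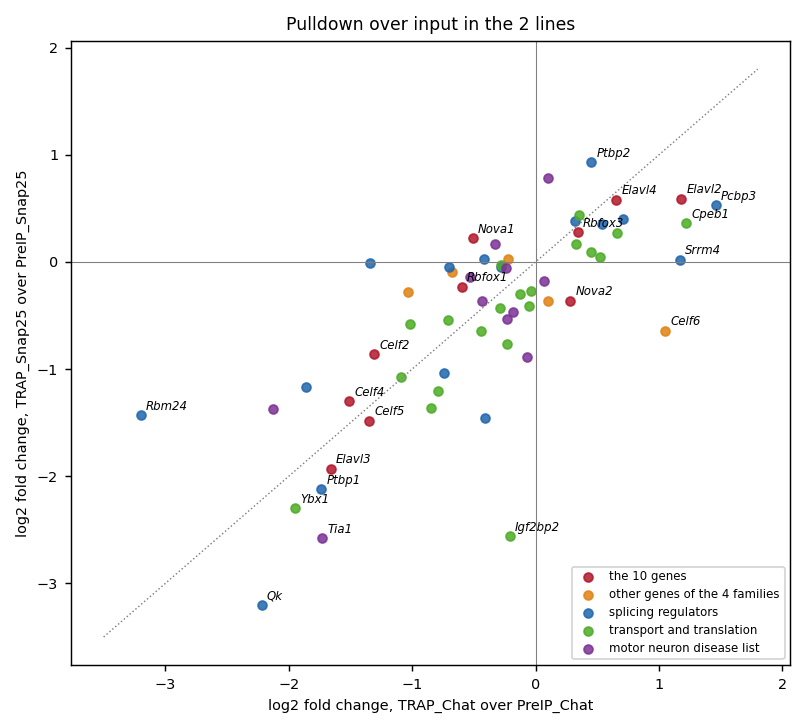
Each point is 1 RNA-binding protein gene, with the log2 fold change of TRAP_Chat over PreIP_Chat on the horizontal axis and of TRAP_Snap25 over PreIP_Snap25 on the vertical axis, and a dotted line of equal values. Elavl3 lies at -1.66 and -1.93, Qk at -2.22 and -3.20, and Pcbp3 at 1.46 to the right of the line.

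Genes whose levels followed single members over the 12 libraries were sought among 10529 genes whose mean was 5 CPM or more. For Elavl3 these were Ankrd40 (Pearson r 0.975), Nav1 (0.966) and Mast4 (0.961), and for Celf4 they were Chpt1 (0.967), Gria1 (0.963) and Dlg1 (0.963). For Elavl4 they were Sgtb (0.947), Esrrg (0.940) and Zdhhc13 (0.937). Over all 10 genes the 3 most alike had r between 0.883 and 0.985. Among the members themselves, Elavl3 and Celf4 had r = 0.90, Elavl2 and Elavl4 0.86, Rbfox1 and Nova1 0.85, and Nova1 and Nova2 -0.77. The 12 libraries fall into pulldowns and inputs and share their scaling, so these values describe that split and the GC lean as well as the genes.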

How the data were processed

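The authors deposited raw counts of reads for each Ensembl gene, and the submitters' processing notes name STAR and HTSeq. No version, genome build, annotation release or strand setting is given in the sources used here. Of 41736 lines, 824 exact repeats were dropped, leaving 40912 gene IDs. Groups were taken from the sample titles. Total counts of 10149346 to 20521699 per library set the counting precision.

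Tests were run in edgeR 4.0.16 (R 4.3.3). Genes were filtered with filterByExpr (15905 tested), scaled by TMM and fitted over all 12 libraries with 1 mean per group. The quasi-likelihood test (two-sided) was adjusted by Benjamini-Hochberg over all tested genes, with a threshold of 0.05. SE is that of the fitted log2 fold change. CPM per kb used the union of exons in GENCODE M21, which was also used for overlaps. With the strand unknown, reads where genes overlap may belong to either gene or may have been left out of the counts.

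Alternatives were RLE and total-count scaling, mitochondrial genes left out, DESeq2 1.42.0, limma 3.58.1 voom, other filters, a fit of only the groups compared, a replicate block, each replicate left out and, chosen after seeing the data, removal of each library's GC trend. The members and lists were chosen with earlier results of these data known, so the p-values printed for members and listed genes serve as a description. Genes named beside the members are the remaining family genes and, for each other list, comparison and direction, up to 2 called genes with the largest change and a group mean of at least 1 CPM. RefSeq promoters matched 9 of the 10 members.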

Additional observations from a re-analysis of the deposited data

How the results depend on the processing

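No called value reversed. The members were selected on pulldown against input, so their calls there are a description and no sign of stability. Calls over all genes moved with the setting too, so no change in the counts below is read as a trait of the members. Genes called higher in TRAP_Snap25 against PreIP_Snap25 were 1541 of 15905 as reported. They were 3289 of 15905 with total-count scaling and 2574 of 14152 with the GC trend removed. Without replicate 2 of PreIP_Snap25 they were 675 of 16455. Genes called lower there were 2017, 1391, 1971 and 1298 in the same order. In TRAP_Chat against PreIP_Chat the count of members called higher, 1 as reported, was 2 with total-count scaling, without mitochondrial genes, with DESeq2, in a fit of only the groups compared and with the GC trend removed, and 0 to 1 with 1 replicate left out. In TRAP_Snap25 against PreIP_Snap25 members called higher, 0 as reported, were 2 with total-count scaling and with the GC trend removed and 0 to 1 with 1 replicate left out, and members called lower, 4 as reported, were 2 with total-count scaling and in a fit of only the groups compared and 2 to 4 with 1 replicate left out. In TRAP_Chat against TRAP_Snap25, members called lower, 0 as reported, were 1 without mitochondrial genes, with DESeq2, with limma voom, with no filter, with a filter of 1 CPM in 3 libraries and with the GC trend removed, and 0 to 2 with 1 replicate left out, and members called higher were 0 to 1. Of the 52 listed genes, those lower in TRAP_Chat against PreIP_Chat, 12 as reported, were 6 with total-count scaling and 6 to 10 with 1 replicate left out, and those higher, 4 as reported, were 7 with the GC trend removed. Listed genes lower in TRAP_Snap25 against PreIP_Snap25, 12 as reported, were 7 with total-count scaling and 5 to 12 with 1 replicate left out, and those higher, 1 as reported, were 4 with total-count scaling, 2 without mitochondrial genes and with DESeq2, 0 in a fit of only the groups compared, 3 with the GC trend removed and 0 to 2 with 1 replicate left out. Listed genes higher in TRAP_Chat against TRAP_Snap25, 4 as reported, were 1 in a fit of only the groups compared and 2 to 5 with 1 replicate left out, and those lower, 1 as reported, were 0 with total-count scaling and in a fit of only the groups compared, 3 with DESeq2 and 0 to 3 with 1 replicate left out. The difference between the lines gave 1 listed gene higher with the GC trend removed, against 0 as reported. Over all comparisons and alternatives, single values of the families' members kept their side of the threshold in 807 cases, gained a call in 25 and lost one in 18. Those of named listed genes kept theirs in 995, gained one in 4 and lost one in 57. Values that were not called could change sign, as for Celf5 in TRAP_Chat against TRAP_Snap25, which ran from -0.26 to 0.39. The totals include the comparison of the inputs and the difference between the lines, where no alternative called any member. The GC alternative was chosen after seeing the data. The causes of these changes were not tested. Same-numbered pulldown and input libraries share a suffix in the labels' descriptions, whose meaning is not stated, and were not treated as pairs in the main fit. They deviated together with r of 0.06, 0.10 and 0.13 in the Chat line and -0.04, 0.17 and 0.15 in the Snap25 line. Each TRAP_Chat library correlated best with its own number and replicates 1 and 3 of TRAP_Snap25 did not. The replicate block, an alternative, paired same-numbered pulldown and input libraries within a line. For comparisons within a fraction it joined same-numbered libraries of the 2 lines, for which no link is stated. With the replicate number as a block, members called in TRAP_Chat against PreIP_Chat were 2 higher and 5 lower, with Elavl4 and Rbfox1 added and Celf6 among the listed genes lost, and 0 listed genes were lower in TRAP_Chat against TRAP_Snap25, and no other count moved by over 1.5 times. Pulldown libraries varied more than input libraries. The edgeR coefficient of biological variation was 0.483 for TRAP_Chat, 0.493 for TRAP_Snap25, 0.231 for PreIP_Chat and 0.285 for PreIP_Snap25, and that spread limits the size of difference the pulldowns can show.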
